A study of Mus musculus with 12 samples.

Results

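A group of 1419 promoters in mouse small-intestinal crypts carried H3K27me3 without H3K4me3, out of 21866 protein-coding genes with an annotated coding start site (6.49%). They were chosen from 2 peak lists of crypts chromatin. A gene was a member when an H3K27me3 peak lay within 1 kb of at least 1 of its start sites and no H3K4me3 peak lay within 1 kb of any of them. Of the 2860 promoters with H3K27me3 in crypts, the other 1441 carried both marks and are called bivalent here. In crypts 13.1% of all coding genes had H3K27me3 and 57.7% had H3K4me3 at a start site. A further 11172 promoters carried H3K4me3 only and 7834 neither mark. Since the crypts lists of H3K27me3 and H3K4me3 chose the members, their values in those lists are given as a description, and the results below rest on the other crypts lists and on villi.

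H3K27me3 is the trimethylation of lysine 27 of histone H3, written by the Polycomb repressive complex PRC2 and found over promoters of silent genes, many of them regulators of development. H3K4me3 marks promoters that are active or open to activation, and promoters with both marks are held silent in a state known from embryonic stem cells. H3K4me1 is typical of enhancers and of the flanks of promoters, whereas H3K9me3 and H3K9me2 belong to heterochromatin. In the intestine, stem cells and their dividing progeny sit in the crypts, and their descendants, mostly enterocytes, move up onto the villi as they differentiate. A promoter with H3K27me3 alone is therefore one with no H3K4me3 called in the compartment that holds the stem cells.

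The study was made on small intestine of mice for which the labels give no strain, age, genotype or treatment. Villi were scraped off and crypts were released with EDTA from the remaining tissue, so both compartments are bulk fractions that can hold other cells. Each of the 5 modifications was immunoprecipitated once from crypts and once from villi, with Drosophila chromatin added as a reference, and an input was sequenced for each compartment. With 1 library per group there is no replicate check, so no test and no p-value is given between crypts and villi. Shares carry 95% Wilson intervals that cover counting error only, and neighbouring genes that share a peak are not independent. The lists hold between 7611 and 55341 peaks for H3K27me3, H3K4me3 and H3K4me1, 2126 and 2089 for H3K9me3 in crypts and villi, and 6 and 3 for H3K9me2. Their score, read here as −log10 of the authors' p-value for a peak, is not scaled by the added chromatin and ranks peaks only within a list, and the depth is unknown. Markers of enterocytes, the absorptive cells, had H3K4me3 at 5 of 5 promoters in both compartments. Of 4 stem cell markers, 4 had it in crypts and 3 in villi. In bulk chromatin, a mark in fewer cells and less of the mark in each cell cannot be told apart. The authors also reported that part of the H3 in villi, but not in crypts, has lost its N-terminal tail. In their scaled signal, H3K4me1, H3K4me3 and H3K9me3 were lower in villi, whereas H3K27me3 was retained. How far this bears on the called peaks compared here was not tested.

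To show what such promoters look like, 6 members are printed. Only named members with a matched RefSeq promoter were considered, and printed are the ones with the highest and the lowest CpG ratio among the 7 such genes with the strongest H3K27me3 in crypts (Spag6 and Prrxl1), the 19 without H3K27me3 in villi (Rbmxl2 and Kcne2) and the 3 with the strongest H3K4me3 in villi (Map1b and Igf2). The CpG ratio is the number of CG dinucleotides over that expected from the C and G content, here over 300 bases around a RefSeq start site of GRCm38.p6. The 250 bases before that start site are given from 5′ to 3′ on the strand of the gene, with each CG in capitals. They hold 16 CG in Spag6 (chr2:18698772-18699021, plus strand) and 10 in Prrxl1 (chr14:32599677-32599926, plus strand). The RefSeq start of Prrxl1 lies 520 bp from the start site used for its other values. Rbmxl2 (chr7:107209195-107209444, plus strand) holds 23 and Kcne2 (chr16:92295366-92295615, plus strand) holds 1. Map1b (chr13:99516603-99516852, minus strand) holds 19 and Igf2 (chr7:142666817-142667066, minus strand) holds 1.
Spag6: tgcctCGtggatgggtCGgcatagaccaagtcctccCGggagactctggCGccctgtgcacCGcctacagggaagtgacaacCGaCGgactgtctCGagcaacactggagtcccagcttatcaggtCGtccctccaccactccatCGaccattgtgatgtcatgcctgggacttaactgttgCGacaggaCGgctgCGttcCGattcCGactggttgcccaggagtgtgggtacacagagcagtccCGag
Prrxl1: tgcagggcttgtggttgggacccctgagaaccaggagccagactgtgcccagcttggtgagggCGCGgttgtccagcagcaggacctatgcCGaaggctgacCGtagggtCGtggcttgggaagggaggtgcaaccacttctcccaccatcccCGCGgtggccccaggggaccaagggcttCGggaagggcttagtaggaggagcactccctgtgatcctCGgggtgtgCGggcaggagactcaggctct
Rbmxl2: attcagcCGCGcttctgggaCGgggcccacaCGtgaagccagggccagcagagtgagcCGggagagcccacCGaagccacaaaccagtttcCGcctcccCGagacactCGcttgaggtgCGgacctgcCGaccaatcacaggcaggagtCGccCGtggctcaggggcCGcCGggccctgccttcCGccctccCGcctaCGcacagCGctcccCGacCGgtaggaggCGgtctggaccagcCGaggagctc
Kcne2: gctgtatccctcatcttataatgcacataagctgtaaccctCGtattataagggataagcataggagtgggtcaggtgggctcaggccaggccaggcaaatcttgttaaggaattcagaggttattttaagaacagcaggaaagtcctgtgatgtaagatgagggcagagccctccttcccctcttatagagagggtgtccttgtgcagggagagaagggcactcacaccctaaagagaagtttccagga
Map1b: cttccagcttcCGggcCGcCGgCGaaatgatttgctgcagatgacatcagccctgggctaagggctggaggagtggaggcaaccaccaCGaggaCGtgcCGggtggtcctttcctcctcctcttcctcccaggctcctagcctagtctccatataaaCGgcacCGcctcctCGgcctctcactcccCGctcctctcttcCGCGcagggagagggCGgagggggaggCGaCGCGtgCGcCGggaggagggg
Igf2: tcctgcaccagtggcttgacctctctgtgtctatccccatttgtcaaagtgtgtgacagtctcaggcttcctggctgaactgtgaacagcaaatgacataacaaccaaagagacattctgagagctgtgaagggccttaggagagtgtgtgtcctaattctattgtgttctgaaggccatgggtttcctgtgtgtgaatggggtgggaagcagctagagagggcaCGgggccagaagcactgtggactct

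In crypts, the members lay under broad H3K27me3 peaks. They shared 1364 distinct peaks out of the 7611 in the list, and 99 members shared a peak with another member. Counting each peak once, the median width was 2731 bp with quartiles of 1628 and 4647 bp, against 2401 bp for peaks at bivalent promoters and 1793 bp over the whole list. The start site nearest to the peak lay inside it at 1192 members (84.0%), and the median peak reached 1036 bp upstream and 1798 bp downstream of it. Of the window of 1 kb on either side of the start site, a median of 83.2% was covered, and 520 members had the window wholly covered. Members close to the distance limit were few. The H3K27me3 peak of 5 members lay in the last 100 bp inside it, and 9 genes without H3K4me3 were left out by a peak in the first 100 bp beyond. On the H3K4me3 side, 6 members had the nearest peak in the first 100 bp beyond the limit, and 3 genes with H3K27me3 were left out by one in the last 100 bp inside. Most members were far from any H3K4me3 in crypts, with a median distance of 42385 bp. For 109 members the H3K27me3 score was below 11, close to the limit of 10 of the calls.

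The highest-scoring members, 1 per peak, were mostly genes of transcription factors that pattern the embryo. Pax6, a factor of eye, brain and endocrine development, had the highest score, 63.5 on the −log10 p scale, in a crypts peak 35260 bp wide (chr2:105658328-105693587). In villi 2 peaks met it and covered 99.0% of it, of which the one over the start site was 22934 bp wide with a score of 46.0. Lhx9, a LIM homeobox factor, had a peak 19168 bp wide in crypts, against 18902 bp in villi. Evx1, a homeobox gene beside the Hoxa cluster, had a crypts peak of 22923 bp that was likewise split, with 97.7% of it covered by 2 villi peaks. At Pax2, a kidney factor with 16293 bp in crypts, a single villi peak of 28537 bp joined 2 crypts peaks. The widths at these 3 genes are thus not those of single pairs of peaks, and at least 97.7% of each crypts peak was covered in villi. Sox18, an endothelial factor, had 11858 and 11565 bp in a pair of single peaks. At Prdm12, a factor of pain-sensing neurons with 18285 bp in crypts, and Prrxl1, a homeobox factor of sensory neurons with 6158 bp, villi peaks of 21627 and 8869 bp each joined 2 crypts peaks. Wnt10b, a Wnt ligand, had one of the narrower of these peaks, 5648 against 5500 bp, with scores of 58.1 and 57.3. Spag6, a protein of the sperm tail and of cilia, had 17427 bp in crypts, of which 91.5% was covered by 2 villi peaks. At each gene named here the window around the start site was wholly covered in both compartments. Pax6 had an H3K4me3 peak in villi and the others named here had none.

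In villi, 1393 of the 1419 members had an H3K27me3 peak within 1 kb of a start site (98.2%, 97.3 to 98.7%), where 16.1% of all coding genes had one. Bivalent promoters of crypts had one in 92.2% (90.7 to 93.5%), and both intervals cover counting error only. The groups were not matched for their crypts H3K27me3 peaks. Those of members were wider, with medians of 2731 against 2401 bp, and lay over the start site at 84.0% against 60.2%. The villi list is longer than that of crypts, with 13797 peaks over 35.6 Mb against 7611 over 20.3 Mb. When the villi list was cut by score to the number of crypts peaks, the shares were 93.7% for members and 85.0% for bivalent promoters. Cut to the covered length of the crypts list, they were 78.8% and 67.4%, so the difference between the 2 groups had the same sign in all 3 settings. In all, 1255 members (88.4%) again had H3K27me3 without H3K4me3, and they made up 70.0% of the 1794 villi promoters in that state.

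The H3K27me3 peaks at members were wider in villi. In 1026 cases a single crypts peak met a single villi peak. Their median width was 2606 bp in crypts against 3592 bp in villi, with 857 peaks wider (83.5%, 81.1 to 85.7%) and 167 narrower. The median log2 ratio of the widths, villi over crypts, was 0.31 with quartiles of 0.07 and 0.63. It was 0.22 at bivalent promoters and 0.32 over crypts peaks that hold no member, so the widening of the called peaks was not particular to the members. It was at least 2-fold at 119 pairs, while 5 peaks were at most 0.5 times as wide. Of the 1338 member peaks that met any villi peak, 257 met one that also met another crypts peak and 78 met 2 or more, and some did both.

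**Figure D1:**
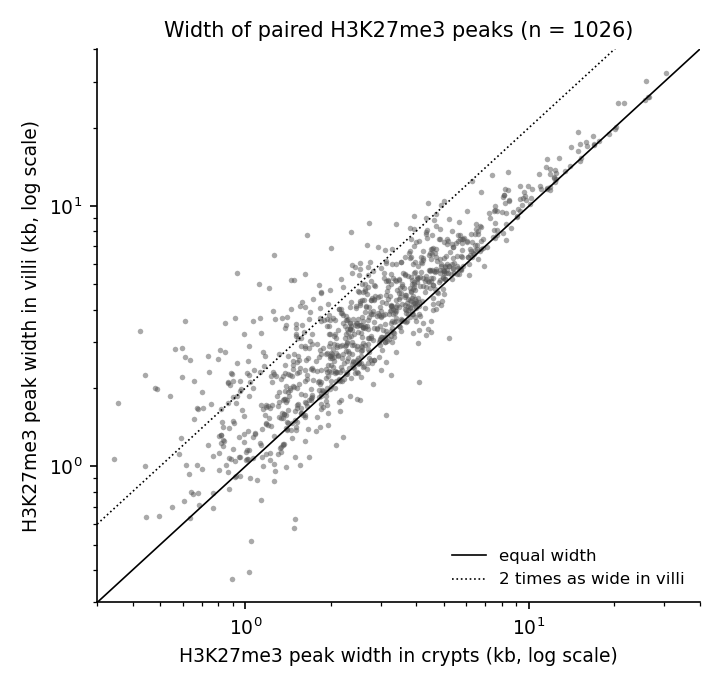
Width of the H3K27me3 peak in crypts (x axis) and in villi (y axis), both in kb on log scales, at 1026 member peaks that met a single villi peak; each point is a pair of peaks, the solid line is equal width and the dotted line is 2 times the width in villi. Of the points, 857 lie above the solid line and 119 on or above the dotted one.

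The 5 pairs with the largest ratio all had narrow crypts peaks. At Cpne6, a calcium-binding protein of neurons, the peak spanned 423 bp in crypts against 3305 bp in villi, a log2 ratio of 2.97. Krt71, a keratin of the hair root sheath, had 931 and 5537 bp, Optc, an extracellular matrix protein of the eye, 612 and 3616 bp, Syt16, a synaptotagmin, 1257 and 6469 bp, and Syndig1l 442 and 2233 bp. At the other end, the peak at Pcdhga9, a protocadherin, spanned 1028 bp in crypts against 393 bp in villi, a log2 ratio of -1.39. Gm9918 had 1483 and 577 bp, Trim50 898 and 370 bp, Mapk8ip1, a scaffold of JNK signalling, 1497 and 627 bp, and Gypc, a red cell membrane glycoprotein, 1044 and 516 bp.

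Over the promoter windows, H3K27me3 covered a median of 83.2% in crypts and 100% in villi, against 67.2% and 75.5% at bivalent promoters. More of the window was covered in villi at 682 members, less at 251 and the same at 486, with a mean difference of 7.10 percentage points. This direction depended on the length of the lists, since the mean was -8.78 points when the villi list was cut to the covered length of the crypts list. The extension was seen on both sides of the start site. At 2 kb upstream, 32.5% of the members were under a peak in crypts and 49.9% in villi, and at 2 kb downstream 51.7% and 66.7%, whereas at the start site itself it was 84.0% and 86.0%. The median share of the gene body covered was 11.7% in crypts and 19.1% in villi.

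**Figure D2:**
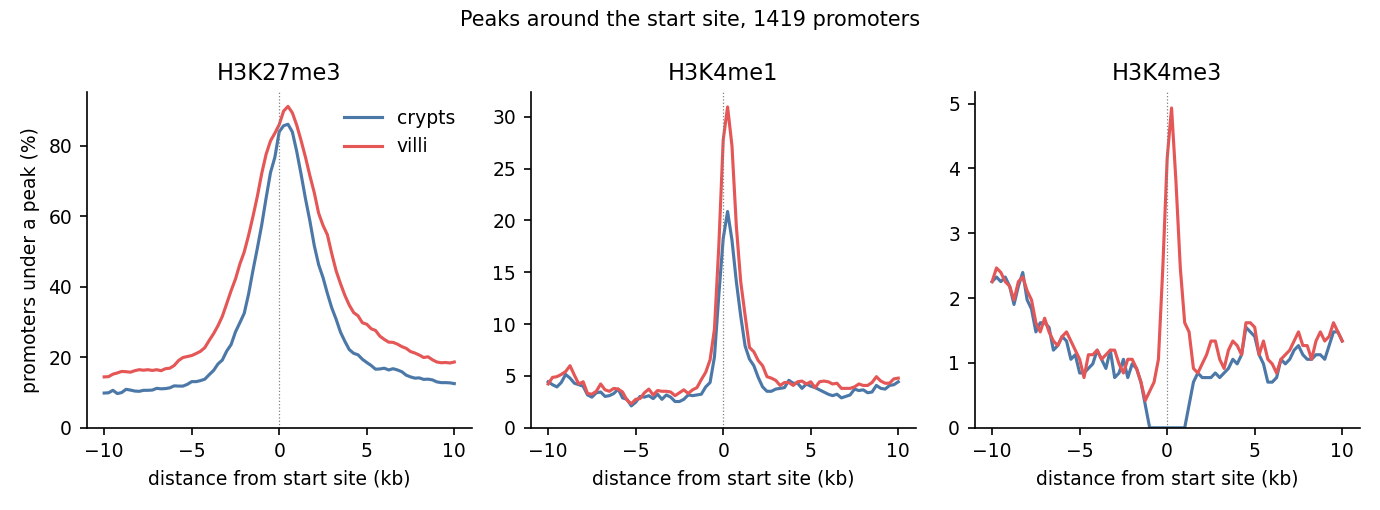
Share of the 1419 members under a peak (y axis, %) against the distance from the start site nearest to the crypts H3K27me3 peak (x axis, kb, negative upstream), for H3K27me3, H3K4me1 and H3K4me3, with crypts in blue and villi in red. H3K27me3 reaches further out in villi, H3K4me1 at the start site goes from 18.3 to 27.8%, and H3K4me3, which is 0 in crypts by the choice of members, reaches 4.16% at the start site in villi.

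Only 26 members had no H3K27me3 peak within 1 kb of a start site in villi. Their crypts peaks were narrow and weak, with a median width of 1090 bp and a median score of 10.7, and 22 of them lay in the lower 50% of the crypts list by score. Among members with a crypts peak in that part of the list, 22 of 403 (5.46%, 3.63 to 8.13%) had none in villi, against 4 of 1016 (0.394%, 0.153 to 1.01%) with a peak in the upper 50%. A villi peak lay within 2 kb at 6 of the 26 and within 5 kb at 10. The 4 with a crypts peak in the upper 50% were Necab2, Cxcl2, Astn2 and Col24a1. Necab2, a neuronal calcium-binding protein, had a score of 24.0 and Cxcl2, a chemokine that attracts neutrophils, 19.3. Astn2, a protein of neuronal migration, had 17.3 and Col24a1, a fibrillar collagen, 16.3. The crypts peak still met a villi peak at 5 of the 26, namely Astn2, C1qa, Evc2, Lrrc71 and Nsg2, where the villi peak ended more than 1 kb from the start site. The widest crypts peak was that at C1qa, a subunit of complement C1q, with 4529 bp, of which 72.4% was covered in villi by a peak 1689 bp from the start site. Of the 4 in the upper 50% of the list, the nearest villi peak was 1320 bp from the start site at Astn2, 10733 bp at Necab2, 143902 bp at Cxcl2 and 358204 bp at Col24a1.

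The others were genes of varied tissues. Pde6a, a phosphodiesterase of rod cells, had 1167 bp in crypts, and Krt12, a keratin of the cornea, 545 bp. The peak at Kcne2, a potassium channel subunit whose promoter is printed above with a single CG, had 1256 bp and a score of 10.1. Lmod1, a protein of smooth muscle, had 557 bp, Slc4a10, a bicarbonate transporter, 2017 bp, Vmn1r16, a vomeronasal receptor, 949 bp, and Tnfrsf25, a death-domain receptor of T cells, 611 bp. Tssk3, a kinase of the testis, and Fam229a shared 1 peak of 433 bp, and Spesp1, a sperm protein, had 702 bp. Evc2 (958 bp), Gpr75 (1161 bp), Cntfr (1042 bp), Nsg2 (1619 bp), Gadl1 (905 bp), Lrrc71 (1634 bp), Smco3 (842 bp), Nutf2-ps1 (1379 bp), Gm10053 (1400 bp), 1700125H20Rik (781 bp) and Rbmxl2 (539 bp) complete the group. In villi, 14 of the 26 had no called peak of any of the 5 marks, of which H3K9me2 had hardly any peaks at all. Of the 26, Cntfr and Gpr75 had H3K4me3, with scores of 12.8 and 10.0.

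H3K4me3 was called in villi at 140 of the members (9.87%, 8.42 to 11.5%). Among all coding genes without H3K4me3 in crypts it was 2.99% and among those with neither mark in crypts 137 of 7834 (1.75%, 1.48 to 2.06%). Both are below the share of the members, in 1 library per compartment. Over all coding genes 57.9% had H3K4me3 in villi. The new peaks were narrow and low. Their median score was 14.3 and their median width 575 bp, against 46.5 and 1137 bp for villi H3K4me3 at bivalent promoters. All 140 lay in the lower 50% of the villi list by score and 85 in its lowest 10%. The top 50% of every list by score leaves out all 140 of these peaks, and it also leaves out weak H3K4me3 peaks of crypts. Promoters with both marks in crypts then go from 1441 to 118. The 1973 members so defined are another set, and 2.74% of them had H3K4me3 in villi. That value is thus no check on the 140. Of the 140 H3K4me3 peaks, 132 overlapped an H3K27me3 peak of villi, which lay at 98.2% of the members' promoters. In the reverse direction, 114 of the 1794 villi promoters with H3K27me3 and no H3K4me3 had H3K4me3 in crypts (6.35%, 5.32 to 7.58%).

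Markers of lymphocytes, which are not members, were looked up for the same mark. None of their 7 promoters had H3K4me3 in crypts and 5 had it in villi (Cd3g, Cd3e, Cd8a, Gzma and Ptprc), 2 of these with H3K27me3 as well, whereas Cd2 and Itgae had none in either. Of 4 myeloid markers, 0 had H3K4me3 in either compartment. None of the markers of these lists was a member. H3K4me3 in villi only was also found at 1 of 3 endothelial markers, Kdr, and 1 of 5 mesenchymal ones, Col1a1, both of them members. Among epithelial markers it was found at 1 of 3 Paneth cell markers, Ang4, and at 1 of 3 enteroendocrine ones, the member Pax6, and the part of such cells in the H3K4me3 of the members was not tested.

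**Figure D3:**
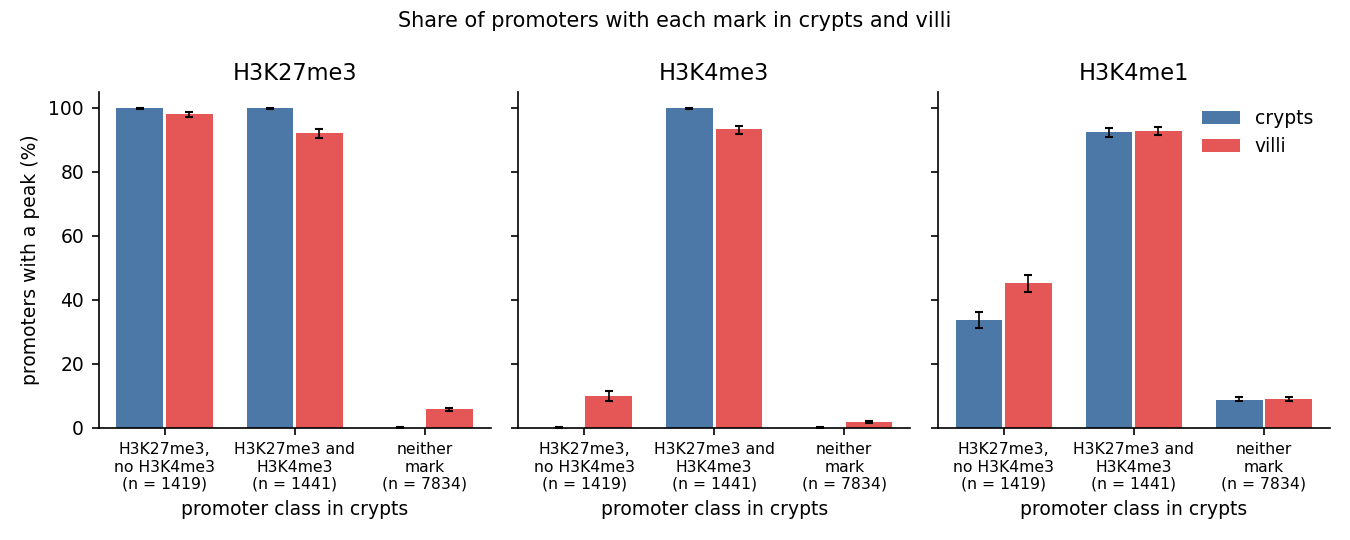
Share of promoters with a peak of H3K27me3, H3K4me3 or H3K4me1 within 1 kb of a start site (y axis, %) in crypts (blue) and villi (red), for 1419 promoters with H3K27me3 and no H3K4me3 in crypts, 1441 with both and 7834 with neither; error bars are 95% Wilson intervals. The classes are defined by H3K27me3 and H3K4me3 in crypts, so those bars are 0 or 100% by choice, while members have H3K4me1 in 33.6 and 45.1%, between the other classes.

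The 10 members with the highest H3K4me3 score in villi were Irx5, Ccdc177, Bcl6b, Map1b, Igf2, Klf14, Igf2bp1, Gcnt1, Foxp2 and Asphd1. Irx5, an Iroquois homeobox factor, had a score of 86.8 in a peak of 1082 bp (chr8:92355589-92356670), and its crypts H3K4me3 peak lay 1024 bp from a start site, just beyond the limit. Ccdc177 had a score of 77.9 in 2390 bp, and its nearest crypts peak was 1127 bp away. These 2 genes thus had H3K4me3 close by in crypts as well. Bcl6b, a transcriptional repressor, had 47.9 in 1781 bp with the nearest crypts peak at 2449 bp. For the remaining 7 it was more than 19 kb away, at the least 19201 bp at Asphd1. Map1b, a microtubule protein of neurons whose CG-rich promoter is printed above, had a villi H3K4me3 peak of 944 bp with a score of 40.7 over its start site (chr13:99516058-99517001). The H3K27me3 peak around it was 4342 bp wide in crypts, against 5407 bp in villi.

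Foxp2, a forkhead factor known from speech and from the gut, had no H3K4me1 in crypts, and in villi H3K4me1 and an H3K4me3 peak of 756 bp with a score of 30.7. Klf14 had 1067 bp with a score of 33.7, Igf2bp1, an RNA-binding protein of fetal tissues, 789 bp with 32.6, and Gcnt1, an enzyme that branches mucin-type glycans, 1466 bp with 31.5. At Igf2, the imprinted fetal growth factor, the H3K4me3 peak of 628 bp (chr7:142658710-142659337) was not at the start site printed above but at another one. It lay beside and not within the villi H3K27me3 peak (chr7:142659776-142667370), which in turn covered 77.7% of the window around the start site printed above. In all, 15 of the 140 H3K4me3 peaks lay only at a start site other than the one nearest to the crypts H3K27me3 peak.

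H3K4me1 divided the members. In crypts 477 had an H3K4me1 peak (33.6%, 31.2 to 36.1%), where 57.8% of all coding genes and 92.5% of bivalent promoters had one. In villi it was 640 (45.1%, 42.5 to 47.7%), where 56.1% of all coding genes and 92.9% of bivalent promoters had one. The members thus had more H3K4me1 promoters in villi while the share over all genes was lower there. Of the 477, 431 kept it (90.4%, 87.4 to 92.7%), and 209 of the 942 without it in crypts had it in villi only (22.2%, 19.6 to 25.0%). That last share was 2.06% (1.75 to 2.41%) for promoters with neither mark, 57.4% (48.0 to 66.3%) for bivalent promoters and 43.7% (40.7 to 46.8%) for those with H3K4me3 only, so the members lay between these classes. The remaining 733 members had H3K4me1 in neither compartment. Of these peaks, 450 of the 477 in crypts and 612 of the 640 in villi overlapped an H3K27me3 peak of the same compartment by at least 1 base, where most of the windows were covered by H3K27me3 through the choice of members. Their median score was 15.5 in crypts and 16.8 in villi, below the 21.4 and 22.7 at bivalent promoters.

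Members with H3K4me1 had wider H3K27me3 domains. The median crypts H3K27me3 width was 3541 bp for those with H3K4me1 in crypts, 3478 bp for those with it in villi only and 2318 bp for those with it in neither. When the members were divided into 4 equal groups by the width of their crypts peak, the share with H3K4me1 in villi was 29.3, 38.6, 49.4 and 63.1% from the narrowest to the widest. H3K4me3 in villi was at 7.04% of the narrowest group and 14.1% of the widest. H3K4me3 in villi was more frequent where crypts had H3K4me1, at 101 of 477 members (21.2%, 17.7 to 25.1%) against 39 of 942 (4.14%, 3.04 to 5.61%). Of the 140 with H3K4me3 in villi, 128 also had H3K4me1 there. Considering called peaks of H3K27me3, H3K4me3, H3K4me1, H3K9me3 and H3K9me2 together, 701 members (49.4%) had H3K27me3 alone in both compartments. H3K9me2 had too few peaks to bear on this. Another 319 had H3K27me3 with H3K4me1 in both, and 181 went from H3K27me3 alone to H3K27me3 with H3K4me1. From crypts to villi, 99 went from H3K27me3 with H3K4me1 to all 3 marks, and 46 from these 2 marks to H3K27me3 alone.

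H3K9me3 was rare at members, with 9 in crypts (0.634%, 0.334 to 1.20%) and 4 in villi (0.282%, 0.110 to 0.723%), where 0.380% and 0.311% of all coding genes had it. Thus the shares were near those of all genes. The villi share rests on 4 genes and was 0.767% with a 5 kb window and 0.0756% when a peak had to cover the start site. H3K9me2 was called at 0 of the 1419 in both compartments, with a Wilson limit of 0.270% for called peaks, and at 0.00915% of all coding genes in each. Its lists hold only 6 peaks in crypts and 3 in villi. The 0 therefore does not bound how many members carry this mark. Tcfl5, Mest and Rbmxl2 had H3K9me3 in both compartments, and Ppp1r36, Hapln2, Grb10, Zfp872, Coro2b and Bglap3 in crypts only. Mest and Grb10 are imprinted genes, expressed from 1 parental copy in most tissues. At Mest an H3K9me3 peak of 2363 bp in crypts (chr6:30736980-30739342) and of 1258 bp in villi lay at a start site downstream of the one under the crypts H3K27me3 peak (chr6:30730875-30733486). In villi that downstream site also had an H3K4me3 peak of 376 bp with a score of 11.8. At Grb10 the crypts H3K9me3 peak of 513 bp (chr11:12025625-12026137) was likewise more than 11 kb away from the H3K27me3 peak at the start site used (chr11:12037722-12041269). At Bglap3, an osteocalcin gene, the 2 marks lay at the same start site, with an H3K9me3 peak of 2335 bp and an H3K27me3 peak of 1001 bp. Over the 9 crypts genes, the H3K9me3 peak overlapped some H3K27me3 peak at 7, and over the 4 of villi at 2.

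The members were rich in regulators of development. The 8 lists of transcription factors held 389 genes in all, of which 192 were members (49.4%, against 6.49% of all coding genes) and 94 bivalent. They made up 13.5% of the members and 6.52% of the bivalent promoters. Among homeobox genes outside the Hox clusters, 80 of 144 were members (55.6%, 47.4 to 63.4%), all 80 with H3K27me3 in villi. Their median H3K27me3 width went from 8565 bp in crypts to 11888 bp in villi, joined peaks included. In villi 8 of them had H3K4me3, namely Dlx2, Hmx2, Irx5, Lhx2, Lmx1a, Msx2, Onecut1 and Pou3f2, a share near that of all members, with a score of 24.0 at Lhx2, a LIM homeobox factor of the forebrain, and 12.5 at Dlx2, a factor of interneurons. Lbx1, a factor of migrating muscle precursors, had a crypts peak of 8516 bp, and a villi peak of 18513 bp joined it with another.

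Pax factors were members at 6 of 9, with H3K4me3 in villi at 2 of the 6, Pax6 and Pax3, a factor of the neural crest, whose scores were 22.6 and 15.2. Of the Sox factors 9 of 19 were members. At Sox2, a factor of stem cells and of the foregut, the crypts peak of 5298 bp was 1 of 5 that a single villi peak of 29391 bp joined, with H3K4me3 of score 11.7 in villi, while at Sox17, an endoderm and endothelial factor, a pair of single peaks had 13404 and 13621 bp. The bHLH factors had 28 of 65 members, among them Hand1, a heart factor with peaks of 9282 and 9572 bp, Olig2, an oligodendrocyte factor with 19888 bp in crypts, and Lyl1, a blood factor with 6976 bp. The latter peaks were each met by 2 villi peaks, which covered 97.7% and 94.1% of them. Tal1, another blood factor, had H3K4me3 in villi with a score of 14.1. T-box factors were members at 7 of 16, with Tbx15 at 29823 bp in crypts and a villi peak of 36660 bp that joined 3 crypts peaks, and forkhead factors at 12 of 44, with Foxf2, a factor of gut mesenchyme, at 21058 bp, 95.4% of it covered by 2 villi peaks. Of the Gata, Zic and related zinc-finger patterning factors, 21 of 53 were members, and 4 of these 21, Egr3, Gata2, Sall4 and Zic1, had H3K4me3 in villi, against 9.87% of all members. All members of these lists had H3K27me3 in villi, as did 98.2% of all members.

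**Figure D4:**
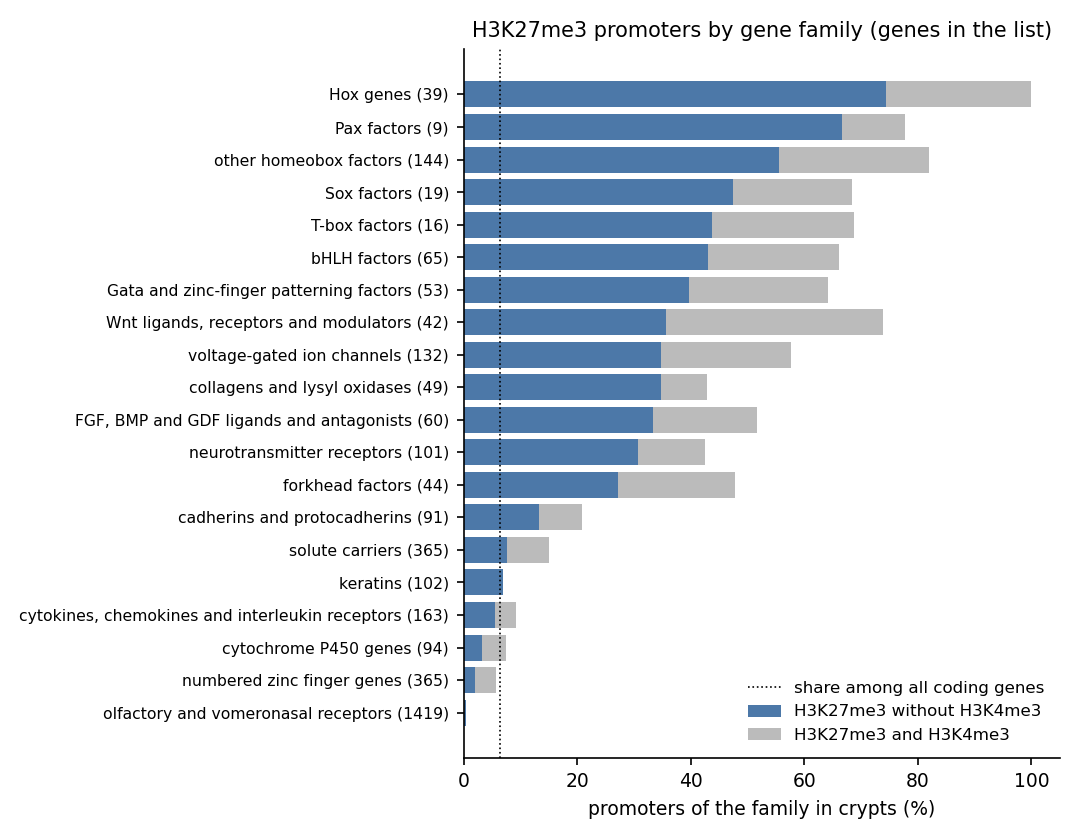
Share of the promoters of each gene family (x axis, %) that carried H3K27me3 without H3K4me3 (blue) or with it (grey) in crypts, with the number of genes in each list in brackets; the dotted line is the 6.49% of all coding genes chosen by the rule. The shares of members go from 74.4% for Hox genes to 0.352% for olfactory and vomeronasal receptors.

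All 39 Hox genes, which set the position along the body axis, carried H3K27me3 in crypts, 29 without and 10 with H3K4me3. The division differed between the clusters. In Hoxc all 9 were members and in Hoxd 8 of 9, all but Hoxd3. In Hoxa 7 of 11 were members and in Hoxb 5 of 10 (Hoxb1, Hoxb2, Hoxb3, Hoxb5 and Hoxb13), with H3K4me3 at Hoxb4, Hoxb6, Hoxb7, Hoxb8 and Hoxb9. The widest crypts peak at any member, 72697 bp with a score of 44.4 (chr15:102921408-102994104), held Hoxc8 to Hoxc12. The next along the cluster held Hoxc4, Hoxc5 and Hoxc6 in 31873 bp, and in villi a single peak of 110743 bp (chr15:102921373-103032115) covered both. The peak over Hoxa3, Hoxa6, Hoxa9, Hoxa10, Hoxa11 and Gm28308 was 56472 bp in crypts, and 99.3% of it was covered in villi by 2 peaks. Evx2, Hoxd13, Hoxd12 and Hoxd11 shared 26570 bp in crypts, all of it within a villi peak of 40793 bp that reached into the adjacent crypts domain of Hoxd10, Hoxd9 and Hoxd8. H3K4me3 was called in villi at Hoxa3 (503 bp, score 10.2) and Hoxd1 (585 bp, score 14.5). H3K4me1 lay at 5 of the 29 in crypts and 13 in villi, against 33.6% and 45.1% of all members, and since neighbours share peaks these are not separate observations.

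Genes of signalling were members at lower shares than Hox genes, 35.7% (23.0 to 50.8%) for Wnt genes against 74.4% (58.9 to 85.4%). Of 42 Wnt ligands, Frizzled receptors and secreted Wnt modulators, the pathway that maintains the crypt, 15 were members and 16 bivalent. In villi 15 of the 15 had H3K27me3 and 0 had H3K4me3, where the shares over all members were 98.2% and 9.87%, and with so few genes no difference from these can be read. Of the 15, 8 had H3K4me1 in crypts and 9 in villi. Wnt1 had peaks of 7690 and 7723 bp, Wnt16 3913 and 5992 bp and Wnt2, a ligand of mesenchyme, 3629 and 4858 bp. Of 60 FGF, BMP and GDF ligands, hedgehog ligands and antagonists, 20 were members, again all with H3K27me3 and none with H3K4me3 in villi, at shares over all members of 98.2% and 9.87%. Dhh, a hedgehog ligand of testis and nerve, had 5372 and 6288 bp, Fgf4, a ligand of the early embryo, 8290 and 9409 bp, and Fgf10, a mesenchymal ligand of gut and lung, 4848 and 5529 bp.

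Among genes of excitable cells, voltage-gated ion channels were members at 46 of 132 (34.8%) and neurotransmitter receptors at 31 of 101 (30.7%), against 6.49% of all coding genes, with median crypts widths of 3008 and 2605 bp, far narrower than those of the homeobox genes. Kcnn3, a calcium-activated potassium channel, had a peak of 5327 bp in crypts against 5501 bp in villi, Drd4, a dopamine receptor, 4718 and 6133 bp, Chrna3, a nicotinic receptor of autonomic ganglia, 3541 and 3606 bp, and at Grin2c, an NMDA receptor subunit, a villi peak of 21137 bp joined 5 crypts peaks, that at the start site with 2952 bp. The ion channels lacked villi H3K27me3 at Kcne2 only. H3K4me3 was called in villi at Cacna1g, Kcna7 and Kcnj10 and at the adrenergic receptors Adra2b and Adrb1, with scores from 10.0 at Kcnj10 to 19.9 at Kcna7. Cadherins and protocadherins had 12 members of 91.

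Among collagens and lysyl oxidases, proteins of the extracellular matrix, 17 of 49 were members and 4 bivalent. Col2a1, the cartilage collagen, had 8396 and 11569 bp and Col8a2 6508 and 8530 bp. Col1a1, the main collagen of fibroblasts, had a crypts peak of 1410 bp, joined with another in a villi peak of 4578 bp, with an H3K4me3 peak of score 11.7 in villi, and Col11a2 and Col14a1 also had one there. Solute carriers were members at 28 of 365 (7.67%, 5.36 to 10.9%), an interval that includes the 6.49% of all coding genes. Of these 28, 5 had H3K4me3 in villi, against 9.87% of all members, and of the 365, 227 had H3K4me3 only in crypts. Keratins (7 of 102), cytokines and their receptors (9 of 163), cytochrome P450 genes (3 of 94), numbered zinc finger genes (7 of 365) and olfactory and vomeronasal receptors (5 of 1419) had shares whose intervals include 6.49% or lie below it. Of the 94 cytochrome P450 genes, the members were Cyp24a1, Cyp26a1 and Cyp4x1, the first 2 of which break down vitamin D and retinoic acid. Cyp24a1 had a crypts peak of 3137 bp, joined with another in a villi peak of 4667 bp, with scores of 48.1 and 45.1.

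Several markers of the rarer cells of the intestine were members. All 3 enteroendocrine markers were, Chga, a protein of hormone granules, Neurod1 and Pax6. Of all coding genes 6.49% were members, and with so few markers per list no difference from this share can be read. Chga had peaks of 3007 and 3129 bp and Neurod1 of 6725 and 6736 bp, and H3K4me1 lay at Chga in villi only. Of the non-epithelial markers, members were 1 of 5 for mesenchyme (Col1a1), 1 of 3 for endothelium (Kdr) and 2 of 4 for smooth muscle (Des and Myh11), and Sox10 of enteric glia was a member too. The mesenchymal markers Vim and Pdgfra were bivalent, whereas Dcn and Col1a2 of mesenchyme, Pecam1 and Cdh5 of endothelium and Tagln and Acta2 of smooth muscle had neither mark. Kdr, a VEGF receptor, had 6468 bp in crypts, 92.5% of it covered by 2 villi peaks, and an H3K4me3 peak of score 24.0 in villi. None of the 5 enterocyte, 4 stem cell, 3 goblet or 3 Paneth cell markers was a member. The stem cell markers Lgr5 and Ascl2 and the goblet cell mucin Muc2 were bivalent.

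The promoters of members held more CpG than those with neither mark and less than those with H3K4me3. Over 1 kb on either side of the most 5′ start site, the median CpG ratio was 0.513 with quartiles of 0.382 and 0.644. It was 0.625 at bivalent promoters, 0.620 at promoters with H3K4me3 only, 0.174 with neither mark and 0.478 over all coding genes. The members with H3K4me3 in villi had a median of 0.589 and those without H3K27me3 in villi one of 0.333. In 4 equal groups of the members from the lowest to the highest CpG ratio, the share with H3K4me3 in villi was 5.92, 7.61, 12.7 and 13.2%. For H3K27me3 in villi it was 95.2% in the lowest group and between 98.9 and 99.4% in the other 3. H3K4me1 in villi was 33.2% in the lowest group and between 48.0 and 50.7% in the others. Individual members departed from this order, since Igf2 with H3K4me3 in villi had a ratio of 0.171 and Rbmxl2 without H3K27me3 in villi one of 1.08.

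**Figure D5:**
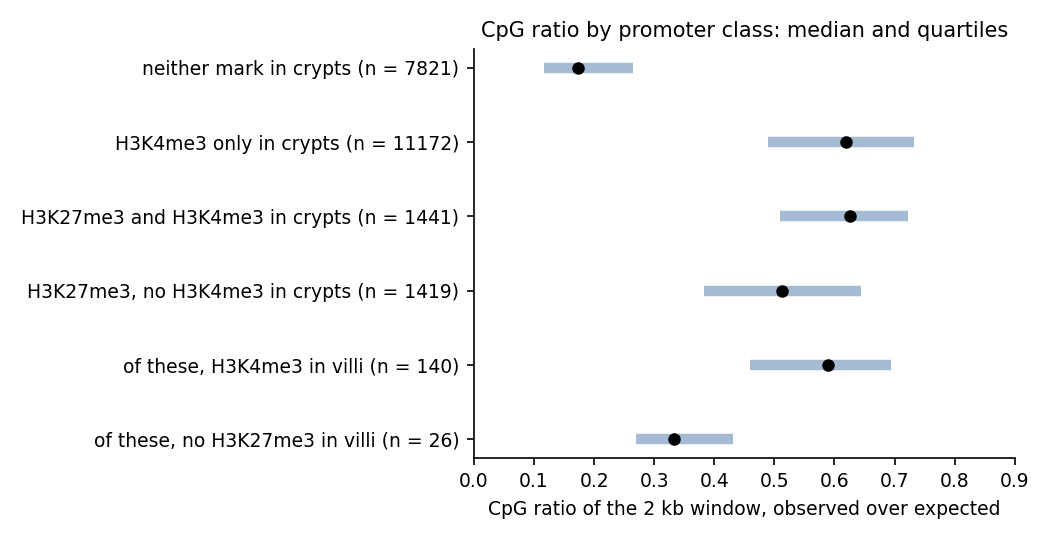
CpG ratio (x axis, observed over expected CG in 1 kb on either side of the most 5′ start site) by promoter class; points are medians and bars span the quartiles. Members lie at 0.513, between promoters with neither mark at 0.174 and those with H3K4me3 near 0.62.

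In the RefSeq promoter table, 941 of the 1419 members had an entry within 1 kb of the start site used. Over its 300 bases, the members held a median of 17 CG, the bivalent promoters 23, promoters with H3K4me3 only 21, those with neither mark 3 and all matched promoters 16. The median CpG ratio of these 300 bases was 0.617 for members and 0.647 for all matched promoters. The letters TATAAA on the strand of the gene, the core of a TATA box, were found at 57 of the 941 (6.06%, 4.70 to 7.77%), at 4.88% of bivalent promoters, at 16.3% of those with neither mark and at 7.82% of all 14515 coding promoters matched. They are present in the Map1b sequence printed above and in none of the other 5. CCAAT on either strand, the letters of the CAAT box, was found at 34.4% (31.5 to 37.5%) of the members and at 38.8% of all matched promoters, and Rbmxl2 is the only printed sequence that holds it.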

How the data were processed

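ChIP-seq peaks of H3K27me3, H3K4me3, H3K4me1, H3K9me3 and H3K9me2 in crypts and villi were analysed from 10 lists, 1 library each. The 2 inputs were not used here. The authors aligned reads to mm10 and dm6 with Bowtie 1.1.2, removed duplicates with samblaster and called peaks with MACS2 2.1.1 at a p-value of 1e-10 (versions from the submitters' processing notes, which also name deepTools 3.1). Labels and methods differ on the amounts of chromatin and antibody. Reads that mapped to both genomes were discarded, and the calling is stated for 4 marks, not for H3K9me2. The deposited score was read as −log10 of the p-value, which could also be a corrected one. It was used only to rank peaks within a list. The files hold no counts, so depth is unknown.

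The 54374 start sites are those of coding transcripts in GENCODE M21 on GRCm38, the assembly mm10 names. All 169081 peaks lie within its chromosome lengths. A promoter had a mark when a peak lay within 1 kb of any start site. The width ratios and their counts rest on cases where 1 crypts peak met 1 villi peak. For named genes and list medians the villi width is that of the peak nearest to the start site, also where peaks were split or joined. For coverage and widths the start site nearest to the crypts H3K27me3 peak was used. Intervals are 95% Wilson intervals. No test was made. Promoter sequences came from RefSeq (GRCm38.p6). Alternatives covered the window, the start sites, cuts of the lists by score, merging of peaks, autosomes and peaks counted once. The overlap code was tested on simulated data. Python 3.11.15, pandas 2.3.3, SciPy 1.17.1 and Matplotlib 3.10.9 were used.

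The members, the gene lists and the comparisons were chosen with earlier results of these data known. Lists were matched by symbol, and genes that shared only letters with a homeobox name were taken out afterwards. Named genes are the 10 highest crypts H3K27me3 scores (1 per peak), all members without villi H3K27me3, the 10 highest villi H3K4me3 scores, the 5 largest and 5 smallest width ratios, members with H3K9me3, up to 4 per gene list by score and the 5 peaks with most members. Genes of the lists with H3K4me3 in villi and members among the markers were named after their values were seen. A few genes that this rule picks are not reported here.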

Additional observations from a re-analysis of the deposited data

How the results depend on the processing

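The 9 results on members, namely their number, the 5 shares with a mark, the coverage difference, the width ratio and the CpG ratio, were recomputed in alternative settings, which gave 78 values, and 57 of these stayed within the interval of the first value (for the number of members, within 1.5 times). The number of members lay between 1322 and 1973. With a 500 bp window, the coverage difference was 4.30 percentage points and the CpG ratio 0.583. With 5 kb, H3K4me1 was at 37.9% in crypts and 49.6% in villi, H3K9me3 in villi at 0.767% and the coverage difference 12.2 points. With the top 50% of every list by score, which defines another set of members, H3K27me3 in villi was 95.6%, H3K4me3 in villi 2.74% and the coverage difference 2.86 points. With lists of equal length by score these were 93.7%, 8.17% and 3.36 points. When a peak had to cover the start site itself, H3K27me3 in villi was 95.8%, H3K4me3 in villi 7.87%, H3K4me1 27.5% in crypts and 39.9% in villi, H3K9me3 in villi 0.0756% and the coverage difference 4.13 points. Merging peaks under 1 kb apart gave a log2 width ratio of 0.38. A setting chosen after seeing the data, the villi H3K27me3 list cut to the covered length of the crypts list, gave 78.8% with H3K27me3 in villi and a coverage difference of -8.78 points, the only change of direction. Autosomes alone, the start sites of all transcripts and each crypts peak counted once moved no value beyond its interval. No paired analysis was possible because the labels give 1 library per group and no replicate numbers. Depth is unknown and limits which weak peaks were called in either compartment.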

Other observations

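The members were unevenly spread over the chromosomes. On chromosome 15, which carries the Hoxc cluster, 82 of 781 coding genes were members (10.5%, 8.54 to 12.8%), and on chromosome 16 it was 22 of 661 (3.33%, 2.21 to 4.99%). On the X chromosome it was 9 of 948 (0.949%), with 17 bivalent promoters, and no gene of the Y chromosome was a member.

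Many members had H3K27me3 at each of their promoters. Of the 855 with more than 1 start site, 518 (60.6%, 57.3 to 63.8%) had a crypts peak within 1 kb of every one. With the top 50% of every list by score, so that the lists of both marks were cut at once, 1973 promoters had H3K27me3 without H3K4me3 and 118 had both.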
